A study of Etheostoma caeruleum with 18 samples.

Results

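The livers of rainbow darter (Etheostoma caeruleum) held with one or the other mirror-image form of venlafaxine were compared directly, as 6 S-venlafaxine fish against 6 R-venlafaxine fish. These 12 libraries are 12 of the 18 in the study, and the other 6 are unexposed controls. All were wild fish from the Grand River in Ontario acclimated for 14 days and then held for 14 days in glass tanks with no venlafaxine, 1 µg/L of R-venlafaxine or 1 µg/L of S-venlafaxine. Dose and time were thus the same for both forms. Each library is the polyA RNA of 1 liver. Sex and age are not given in the labels, and neither is the tank of each fish. Tanks held several fish and were assigned to groups at random. The p-values therefore measure how far fish varied, and an effect of the tank cannot be told apart from one of the form. The comparison covers 59733 assembled genes that passed a low-count filter, out of 302933 listed.

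Venlafaxine is used to treat depression. It blocks the transporters that carry serotonin and noradrenaline back into nerve endings. The R and S forms share every bond and differ in handedness at the stereocentre. In mammals the S form acts mainly on the serotonin transporter and the R form on both transporters. The liver is where the drug is chiefly broken down; in humans the enzyme CYP2D6 converts it to an active metabolite. Whether the darter's liver answers the 2 forms with different genes is what this comparison addresses.

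The tables give genes as identifiers of a transcript assembly and do not pair them with names. No gene could be placed in a pathway, and the liver label could not be checked against marker genes. A level is given as TPM, a share of the library corrected for transcript length and set to the same sum in each library. In bulk tissue a lower level can mean fewer cells of a type or less of the RNA per cell, and these cannot be told apart.

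Liver profiles as a whole did not separate by form at this sample size. The share of the variance in log2 CPM (counts scaled to library size) that lay between the forms was 9.11%, and the mean over all 924 ways to divide the 12 libraries 6 and 6 was 9.09% (exact permutation p = 0.3874, n = 6 against 6). The distance between 2 livers, the root mean square difference in log2 CPM over genes, had a like mean within and between forms. It was 1.89 log2 units over 36 pairs of unlike form, 1.90 over 15 pairs of S-venlafaxine fish and 1.88 over 15 pairs of R-venlafaxine fish. Scarce genes weigh heavily in this distance. Their median SD between fish below 1 TPM was 1.3 after S-venlafaxine and 1.26 after R-venlafaxine, against 0.317 and 0.301 from 10 to 100 TPM. Over the 27444 genes with a mean of at least 1 TPM the variance share was 9.27% (exact permutation p = 0.3225). For 4 of the 12 fish the most similar liver came from a fish given the same form, and for the other 8 from one given the mirror image. S-venlafaxine 6 and R-venlafaxine 6 were the closest pair of all, at 1.79.

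**Figure D1:**
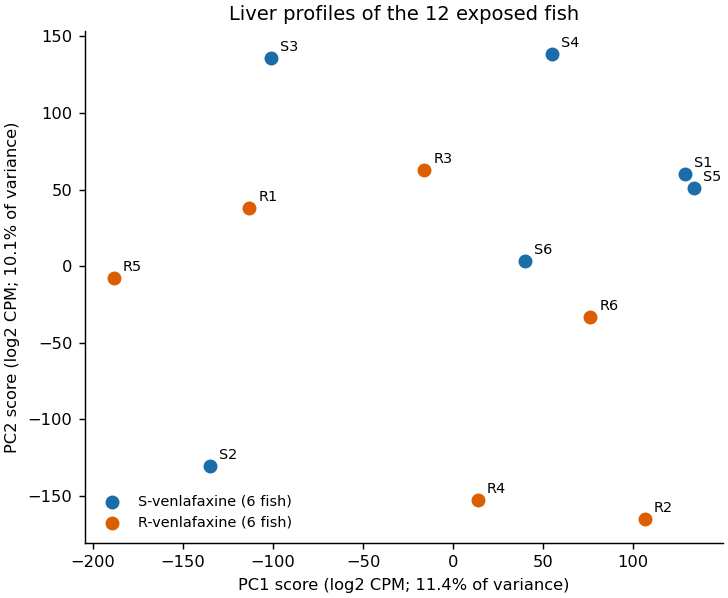
Scores of the 12 exposed fish on the first (11.4% of variance, horizontal) and second (10.1%, vertical) principal component of log2 CPM over 59733 genes, with S-venlafaxine in blue and R-venlafaxine in orange. Fish of both forms spread over the plot and no line along either axis parts the 6 blue from the 6 orange points.

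One property of the libraries did differ, their depth. S-venlafaxine totals ran from 47.4 to 51.5 M estimated counts with a median of 51.0 M, and R-venlafaxine totals from 51.7 to 62.4 M with a median of 54.4 M. The totals did not overlap (means 50.0 ± 1.75 and 55.9 ± 4.39 M, SD, n = 6 each; two-sided exact permutation p = 0.002165, the smallest this design can give, adjusted p = 0.0303 over 14 library measures). Leaving out any R-venlafaxine library left the adjusted p of the exact permutation test at 0.0303. Leaving out any S-venlafaxine library raised it to between 0.1515 and 0.2424, although the totals still did not overlap. The difference ran from -6.69 to -4.54 M over all 12 libraries left out in turn. The part of depth in the results that follow was not tested.

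How expression was spread over genes was much alike after the 2 forms, and none of the other 13 measures passed. Genes at 1 TPM or more numbered 31184 ± 1310 in S-venlafaxine fish and 30572 ± 2770 in R-venlafaxine fish (SD, n = 6 each; exact permutation p = 0.632, adjusted p = 0.8874). The groups overlapped, and R-venlafaxine fish spanned the wider range, 27111 to 34500 genes. The 10 most abundant genes of a library held 15.9 ± 0.933% of its TPM after S-venlafaxine and 16.3 ± 1.19% after R-venlafaxine (SD, n = 6 each; exact permutation p = 0.5455, adjusted p = 0.8874). The effective number of genes, which is the exponential of the Shannon entropy and falls when few genes dominate, was 1557 ± 177 against 1513 ± 264 (SD, n = 6 each; exact permutation p = 0.7316, adjusted p = 0.8874). The control mean, 1427 ± 142 (SD, n = 6), lay within the range of either exposed group.

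**Figure D2:**
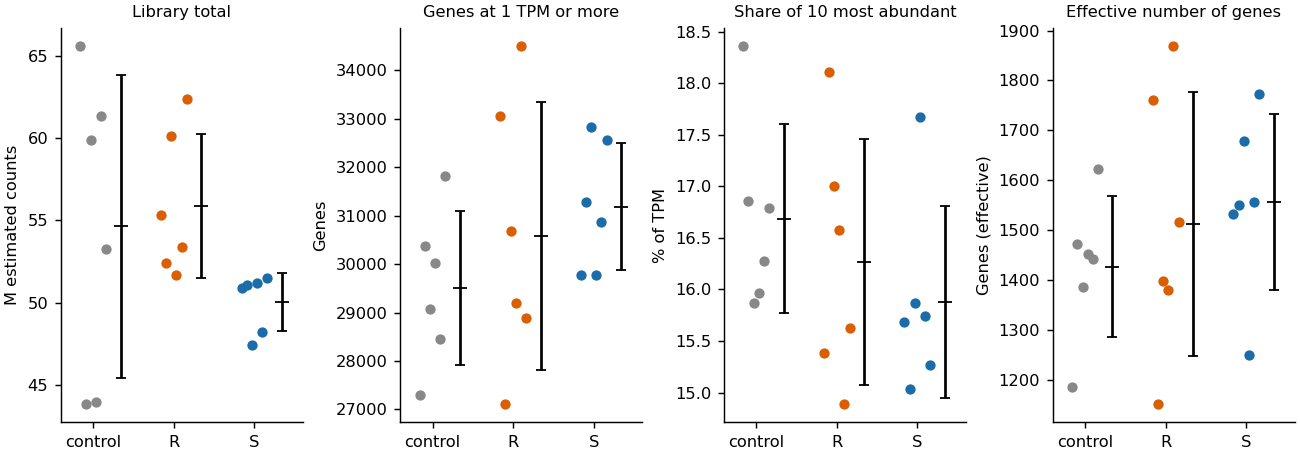
Library total (M estimated counts), genes at 1 TPM or more, share of TPM in the 10 most abundant genes (%) and effective number of genes, with 1 point per fish for control (grey), R-venlafaxine (orange) and S-venlafaxine (blue) and bars for the mean and SD of 6. The vertical axes do not start at 0. Of these 4 panels the totals alone part the forms, between 51.5 M (highest S-venlafaxine fish) and 51.7 M (lowest R-venlafaxine fish).

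Gene by gene, a single assembled gene was called between the forms, and the number called depended on the processing. By the quasi-likelihood test of edgeR, 1 of 59733 genes had a Benjamini-Hochberg adjusted p under 0.05, 0.00167% of those tested, and it was lower after S-venlafaxine. None was called higher. DESeq2, run as an alternative, called 70 genes (0.117%), 38 higher and 32 lower. An unadjusted edgeR p under 0.05 was found for 2060 genes (3.45%), of which 1073 (1.8%) were higher after S-venlafaxine and 987 (1.65%) lower, while evenly spread p-values would give 2987. Of the 1073, the R-venlafaxine group was listed at 0 in 208, and of the 987 the S-venlafaxine group was listed at 0 in 188. How many of all tested genes were at 0 throughout a group was not counted. The 486 of the 1073 with a mean of at least 1 TPM had a median log2 fold change of 0.82, and the 589 such genes among the 987 one of -0.46.

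The called gene is TRINITY_DN2810_c5_g1, the only assembled gene of its component, a component being the set of genes that the assembly joined under one identifier stem. It was listed at 0 in all 6 S-venlafaxine fish. In R-venlafaxine fish 1 to 6 it stood at 0.24, 0.75, 0.45, 0.27, 0.51 and 0.31 TPM. The controls had 1.14, 1.58, 0.80, 0.30, 0.47 and 0.25 TPM, so every unexposed and every R-venlafaxine fish lay above every S-venlafaxine fish (edgeR adjusted p = 0.0483). No fold change is given against a group listed at 0. All of these levels are low. DESeq2 also called this gene (DESeq2 adjusted p = 2.0e-08). The edgeR call is marginal. It held without control 6 (edgeR adjusted p = 0.0442) and was lost on leaving out any other of the 18 libraries, where the edgeR adjusted p ran from 0.0516 to 0.168. Library names carry an A, B or C whose meaning is not given, and with that letter as a factor the call was also lost (edgeR adjusted p = 0.0876).

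Among the more abundant genes lower after S-venlafaxine, those with a mean of at least 1 TPM over the 12 fish, TRINITY_DN39960_c0_g1 had the lowest p. S-venlafaxine fish 1 to 6 had 1.08, 1.06, 1.16, 0.82, 1.12 and 1.49 TPM. R-venlafaxine fish 1 to 6 had 1.92, 1.57, 1.53, 2.12, 2.01 and 1.78 TPM. The groups did not overlap, although the highest S-venlafaxine fish, at 1.49, came within 0.04 TPM of the lowest R-venlafaxine fish. The means were 1.12 ± 0.216 and 1.82 ± 0.238 TPM (SD, n = 6 each). In log2 terms S-venlafaxine was -0.73 from R-venlafaxine (SE 0.15, 95% interval -1.04 to -0.42), which did not pass (edgeR adjusted p = 1). DESeq2 did call this gene (DESeq2 adjusted p = 8.5e-05). The 6 controls, from 0.97 to 1.39 TPM, all lay below the R-venlafaxine range and within the S-venlafaxine range. Relative to those shared controls the log2 fold change was 0.56 (SE 0.15) for R-venlafaxine and -0.17 (SE 0.15) for S-venlafaxine, neither of which passed (edgeR adjusted p = 1 for each).

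In the other direction TRINITY_DN3882_c3_g1 had the lowest p, again as a scarce gene listed at 0 throughout one group. It was listed at 0 in all 6 R-venlafaxine fish. S-venlafaxine fish 1 to 6 had 0.40, 1.23, 0.52, 0.41, 1.34 and 1.19 TPM. The controls had 1.23, 0.49, 0.68, 0.57, 0 and 0.93 TPM, so that 5 of 6 unexposed fish also expressed it. The difference between the forms did not pass (edgeR adjusted p = 0.58), whereas DESeq2 called this gene (DESeq2 adjusted p = 7.1e-09). Without control 5, the unexposed fish listed at 0, the edgeR adjusted p was 0.00484. No other library left out gave it a value under 0.05. With the letter of the library name as a factor the edgeR adjusted p was 1.

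TRINITY_DN856_c0_g2 had the lowest p of the more abundant genes that were higher after S-venlafaxine. S-venlafaxine fish 1 to 6 had 14.73, 16.87, 15.30, 21.68, 17.54 and 14.86 TPM. R-venlafaxine fish 1 to 6 had 6.45, 7.03, 5.45, 7.05, 11.20 and 8.27 TPM. The lowest S-venlafaxine fish was above the highest R-venlafaxine fish and above all 6 controls, which ran from 3.95 to 10.70 TPM. The means were 16.8 ± 2.63 and 7.58 ± 2.0 TPM (SD, n = 6 each), 2.22 times as high after S-venlafaxine. The edgeR log2 fold change was 1.16 (SE 0.23, 95% interval 0.66 to 1.65) and did not pass (edgeR adjusted p = 1). DESeq2 did call this gene (DESeq2 adjusted p = 0.0019). The control mean, 7.59 ± 2.73 TPM (SD, n = 6), was close to that of R-venlafaxine fish. The log2 fold change against the shared controls was 1.13 (SE 0.23) for S-venlafaxine and -0.03 (SE 0.23) for R-venlafaxine, and neither passed (edgeR adjusted p = 1 for each).

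The component of TRINITY_DN856_c0_g2 holds 2 further assembled genes, neither of which was higher on average after S-venlafaxine. Of these, the gene with the suffix g3 averaged 5.71 ± 1.26 TPM after S-venlafaxine and 8.86 ± 3.42 TPM after R-venlafaxine (SD, n = 6 each), and its groups overlapped. The gene with the suffix g1 averaged 0.15 ± 0.367 and 0.413 ± 1.01 TPM (SD, n = 6 each). Each of these means came from a single fish, at 0.9 TPM after S-venlafaxine and 2.48 TPM after R-venlafaxine, with the rest at 0. Genes of a component can share reads, and how far the counting moved reads between these was not tested. With counts summed over the component, the S-venlafaxine minus R-venlafaxine log2 fold change of this component was 0.43 and did not pass (edgeR adjusted p = 1).

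**Figure D3:**
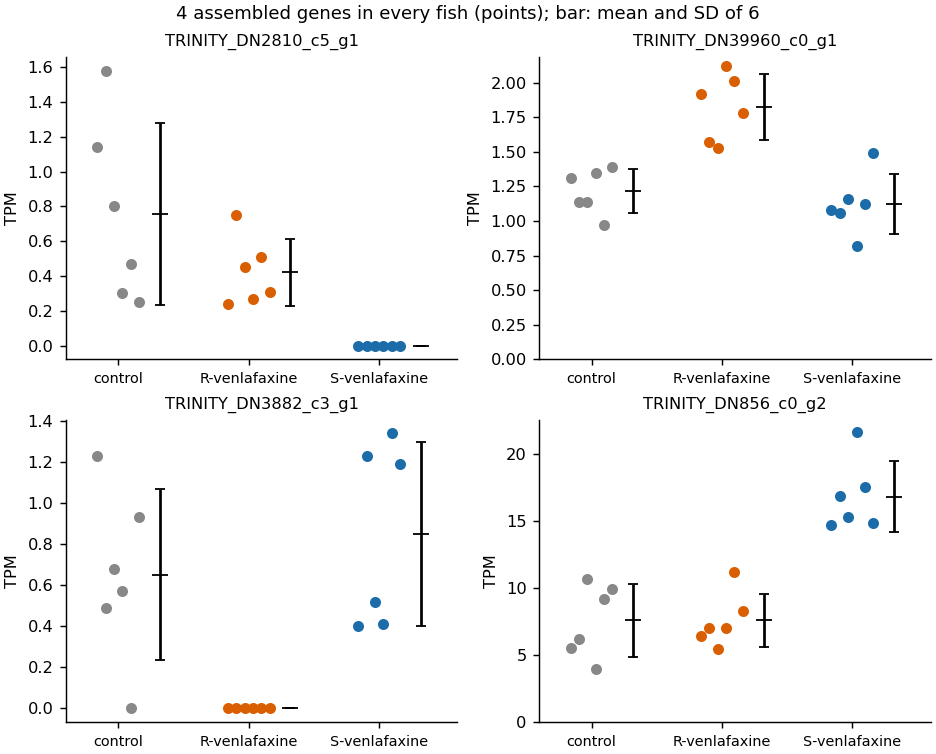
TPM of TRINITY_DN2810_c5_g1, TRINITY_DN39960_c0_g1, TRINITY_DN3882_c3_g1 and TRINITY_DN856_c0_g2 in each of 18 fish (points, in order of replicate number within a group), with bars for the mean and SD of 6. In all 4 panels the S-venlafaxine and R-venlafaxine points do not overlap, and for TRINITY_DN2810_c5_g1 and TRINITY_DN3882_c3_g1 one exposed group lies wholly at 0.

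Complete separation of the forms was rare. All 6 S-venlafaxine fish lay above all 6 R-venlafaxine fish in TPM for 66 of 59733 genes (0.11%), and all below for 29 (0.0485%), 95 genes in all (0.159%). A random division of 12 fish into 6 and 6 fully separates a gene without ties with a probability of 0.002165. The share found lies below that, so separation alone does not mark a gene as different between the forms. On TMM-scaled CPM the counts were 63 and 56, so the lean towards genes higher after S-venlafaxine rests on the scale used. Most such genes are scarce, as are most tested genes. A mean of at least 1 TPM was found for 18 of the 66 and 12 of the 29. Of all 59733 tested genes 27444 had such a mean, and 0.109% of those were separated. In those 18 the S-venlafaxine mean was a median of 2.36 times the R-venlafaxine mean (1.29 to 93.9 times), and 11 reached 2-fold. In those 12 the R-venlafaxine mean was a median of 1.64 times the S-venlafaxine mean (1.29 to 301 times), with 5 at 2-fold or more. The control mean was nearer to R-venlafaxine than to S-venlafaxine in 14 of the 18 and in 5 of the 12. Over all separated genes it was nearer to R-venlafaxine in 36 of the 66 and in 12 of the 29. How often this holds over all tested genes was not counted. The separated genes were picked by the difference between these same fish, and which form moved away from the controls was not tested.

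Some genes were listed at 0 throughout one group and found in at least 5 fish of the other. Among the tested genes 20 (0.0335%) were at 0 in all S-venlafaxine fish and 25 (0.0419%) at 0 in all R-venlafaxine fish, so that neither form had clearly more of them. Few were complete, as 2 of the 20 and 3 of the 25 were above 0 in all 6 fish of the other group. All but 1 of these 45 genes were also listed at 0 in between 1 and 5 of the 6 controls, the exception being TRINITY_DN2810_c5_g1. The low-count filter, which asks for enough counts in at least 6 libraries, favours genes that some controls express. Among all 302933 listed genes, 103 were at 0 in all S-venlafaxine fish and above 0 in at least 5 R-venlafaxine fish, of which 11 were at 0 in every control. The reverse held for 97 genes, of which 3 were at 0 in every control. The median over these genes of the mean level in the group that had them was 0.549 TPM for the 20 and 0.668 TPM for the 25.

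In most of the largest differences among genes with a mean of at least 1 TPM, a single fish held most of its group's TPM. Of the 27444 genes with such a mean, 53 had an edgeR log2 fold change above 3 (8-fold) towards S-venlafaxine and 58 towards R-venlafaxine. In 40 of the 53 and 41 of the 58, 1 fish held over 50% of its group's summed TPM, and in 13 of each 1 fish held over 90%. How common this is among the other genes was not tested. A control fish exceeded the mean of the higher exposed group in 28 of the 53 and 32 of the 58. The 2 forms were fully separated in 2 genes of each set, against 0.109% of all 27444 genes. Both sets were chosen by the size of the same difference. None of these 111 genes passed the test (lowest edgeR adjusted p = 1).

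**Figure D4:**
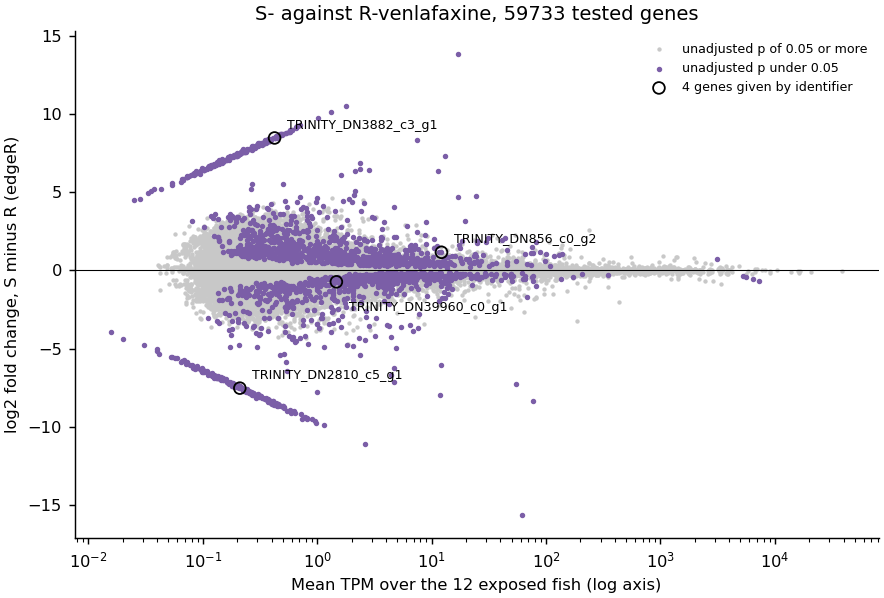
edgeR log2 fold change of S-venlafaxine minus R-venlafaxine (vertical) against mean TPM over the 12 exposed fish (horizontal, log axis) for 59733 genes, with the 2060 genes at an unadjusted p under 0.05 in purple and the 4 genes given by identifier circled. The 2 straight diagonal bands are genes listed at 0 in one whole group, whose fold change is set by the prior count of the fit. The cloud narrows around 0 as TPM rises.

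The size of difference that the data leave room for depended on abundance. For the 184 genes with a mean of 1000 TPM or more the median log2 difference between the forms was 0.01 (quartiles -0.10 and 0.07). No estimated difference among them was over 2-fold. The 95% interval of the difference lay within 2-fold either way for 85.3% of these genes and within 1.5-fold for 66.8%. Between 100 and 1000 TPM there were 710 genes, of which the interval lay within 2-fold for 82.5%, and between 10 and 100 TPM 5322 genes, with 81.2%. From 1 to 10 TPM the share was 59.5% of 21228 genes. Below 1 TPM it was 9.8% of 32289 genes, so for most genes there the interval reached beyond 2-fold. These intervals are not adjusted for the number of genes, and they do not say which differences would be called. TRINITY_DN856_c0_g2, at 2.22 times as high after S-venlafaxine, was not called by edgeR. The typical (median) SE on the log2 scale grew from 0.17 in the most abundant class to 0.99 in the scarcest.

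TMM scaling sets the bulk of log2 differences near 0, so their medians do not show whether the forms shifted as a whole. Relative to that scaling the median log2 difference was -0.02 from 100 to 1000 TPM, -0.02 from 10 to 100 TPM and -0.01 from 1 to 10 TPM. Below 1 TPM it was 0.07 towards S-venlafaxine, the group with the lower totals. In that scarcest class 48 genes had all S-venlafaxine fish above all R-venlafaxine fish in TPM and 17 had all below. Together these were 0.201% of the class, against 0.159% of all tested genes. Over all tested genes such a lean rested on the scale used, with 63 above and 56 below on TMM-scaled CPM. The share of genes at an unadjusted p under 0.05 ran from 1.13% between 100 and 1000 TPM to 4.12% between 1 and 10 TPM. Fish of the 2 groups varied to a like degree. The median SD between fish in log2 CPM was 0.768 after S-venlafaxine and 0.751 after R-venlafaxine over all tested genes, and 0.311 against 0.277 over the 184 most abundant.

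**Figure D5:**
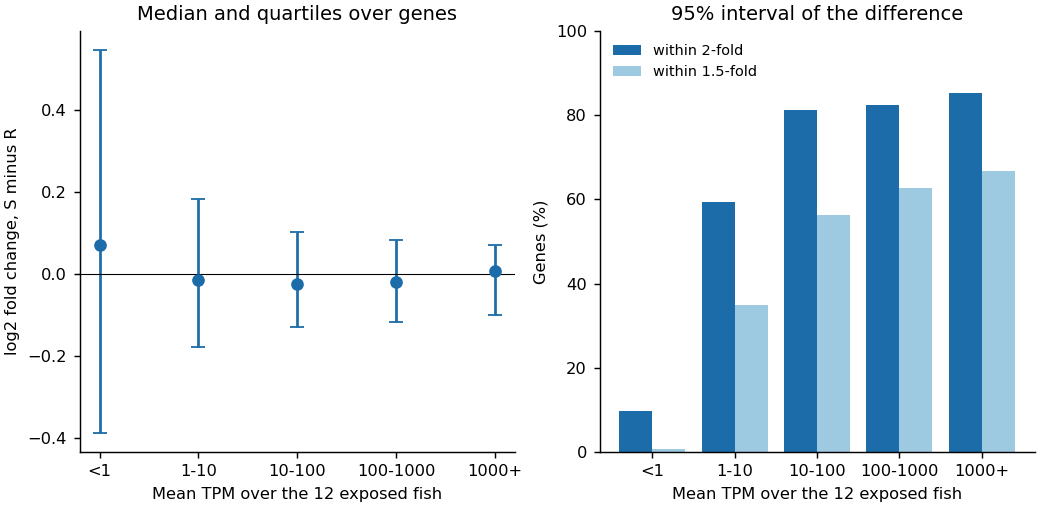
Left, median (point) and quartiles (bars) over genes of the log2 fold change of S-venlafaxine minus R-venlafaxine in 5 classes of mean TPM. Right, percent of genes whose 95% interval lies within 2-fold (dark) and 1.5-fold (light) of no difference, from 9.8% and 0.719% below 1 TPM to 85.3% and 66.8% at 1000 TPM or more.

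The 10 most abundant genes showed small differences between the forms. Ranked by mean TPM over the 12 fish, they together held 15.6 ± 0.701% of TPM after S-venlafaxine and 16.1 ± 1.24% after R-venlafaxine (SD, n = 6 each). Their log2 fold changes lay between -0.20 and 0.01, and for all 10 the 95% interval was within 1.5-fold. The most abundant gene of all averaged 38580 ± 9780 TPM after S-venlafaxine and 38800 ± 4010 TPM after R-venlafaxine (SD, n = 6 each; log2 fold change -0.02, SE 0.19, edgeR adjusted p = 1). Of the 100 most abundant genes 46 were higher and 54 lower after S-venlafaxine, from -0.89 to 0.81 in log2, and the interval was within 2-fold for 82. None of the 100 passed (lowest edgeR adjusted p = 1). An unadjusted edgeR p under 0.05 was found for 5 of the 100, and for 3.45% of all tested genes.

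Of the 20 most abundant genes 16 were lower and 4 higher after S-venlafaxine, whereas the 100 most abundant split into 54 lower and 46 higher. An unadjusted edgeR p under 0.05 was found for 3.45% of all tested genes and for 3 of the 20. These 3, ranked 12, 16 and 20, had log2 fold changes of -0.67, -0.56 and -0.45 and did not pass (edgeR adjusted p = 1 for each). The gene ranked 12 had the lowest p among the 184 at 1000 TPM or more, and it is shown for that reason. It had 7704, 6380, 5379, 4958, 4836 and 4963 TPM in S-venlafaxine fish 1 to 6. In R-venlafaxine fish 1 to 6 it had 9555, 10575, 10648, 7513, 7176 and 7550 TPM. The groups overlapped through S-venlafaxine 1 alone, which lay above R-venlafaxine 4, 5 and 6. The means were 5703 ± 1133 and 8836 ± 1611 TPM (SD, n = 6 each), and the log2 fold change was -0.67 (SE 0.19, 95% interval -1.07 to -0.27, edgeR adjusted p = 1). Controls averaged 8686 ± 1810 TPM (SD, n = 6), close to the R-venlafaxine mean.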

How the data were processed

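The labels name 18 liver libraries in 3 groups of 6. Trimmomatic 0.36, Bowtie2 2.2.7 and RSEM 1.3.1 are named in the submitters' processing notes, without settings. Per the file headers each column is 1 library. The authors deposited estimated counts and TPM for 302933 assembled genes. The deposited estimated counts equalled the deposited TPM scaled to the library total, within 0.0055 TPM, for 99.977% of values. They therefore carry no weight for gene length and are not numbers of reads, so the variance a count model gives low genes is approximate.

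Estimated counts were rounded. The filter (edgeR's filterByExpr, at a minimum count of 10 and a minimum total of 15, given the groups) left 59733 genes with 97.4% to 98.9% of each exposed library. Library sizes were scaled by TMM. edgeR 4.0.16 (R 4.3.3) fitted its quasi-likelihood model to all 18 libraries with group means and robust estimation, and S-venlafaxine minus R-venlafaxine was tested two-sided with Benjamini-Hochberg adjustment over all tested genes. Intervals are 95%. Library measures (14, adjusted over the 14) and the variance share used exact permutation of 6 against 6 libraries. Alternatives used limma 3.58.1 and DESeq2 1.42.0. The test scripts were tested on simulated data. Permutation tests and summaries were run with scipy 1.17.1 and numpy 2.4.6 under Python 3.11.15.

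Identifiers have no names, so at most 2 genes per direction are given by identifier: that with the lowest p, and that with the lowest p at a mean of at least 1 TPM over the 12 exposed fish. Others are described without one. The comparison, the genes and the lists were chosen with earlier results of these data known. The replicate numbers were not taken to pair fish, as the labels do not say that they do. Same-numbered fish of the 2 forms correlated at -0.06 to 0.03 in their deviations from the group means (6 pairs). Fish of different number correlated at -0.06 to 0.06 (30 pairs), and these values cannot decide whether the design paired fish.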

Additional observations from a re-analysis of the deposited data

Results flagged for a closer look

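S-venlafaxine 4 lay far from the other 5 fish of its group in 2 related measures. It had 814 genes at 100 TPM or more, with the next fish at 909. Its 10 most abundant genes held 17.7% of TPM, with the next fish at 15.9%. These were the 2 marked among 36 sets of 6 values, of which 28 were library measures. Chance marks about 1 in 20 such sets, and measures of one library are not independent of each other. The difference between the forms in the share of the 10 most abundant genes stayed between -0.744 and -0.0174 percentage points with any 1 library left out.

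TRINITY_DN2810_c5_g1 is included because it was called between the forms, with a marginal edgeR adjusted p of 0.0483.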

How the results depend on the processing

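The count of 1 called gene stayed at 1 with RLE size factors and with counts summed per component. It rose to 70 with DESeq2. It was 0 with limma voom, upper-quartile scaling (lowest edgeR adjusted p = 0.0504), no filter, the CPM filter, the mean TPM filter, only the 12 exposed libraries, limma on log2(TPM + 1) with and without the filter, limma on log2(TPM + 0.1), the letter of the library name as a factor, and the replicate block, where the lowest edgeR adjusted p was 1. The called gene falls below the CPM filter (at least 1 CPM in 6 libraries) and the filter on mean TPM (at least 1); elsewhere the cause was not tested. In the edgeR fit with no filter 94171 of 288593 genes had an unadjusted p under 0.05, against 2060 of 59733 in the main fit. Those p-values are far from evenly spread, so the loss of the call there says little. With 1 of 18 libraries left out the number of called genes ran from 0 to 1. The call without control 1 (edgeR adjusted p = 0.0453) and the call without R-venlafaxine 2 (edgeR adjusted p = 0.011) were of genes higher after S-venlafaxine, other than the 4 identified. Fish of the same replicate number were not visibly alike, as 1 of 12 libraries correlated best with its own number. That cannot show whether the design paired them.

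The variance share stayed on its side of the threshold throughout. It ran from 8.76% to 9.27% over 5 settings and from 9.79% to 10.35% (exact permutation p 0.184 to 0.7273) with 1 library left out. The mean of 9.09% over splits is for 12 libraries and does not apply to these smaller sets, whose p-values used their own splits. The difference of medians in library totals was -3.39 M (exact permutation adjusted p = 0.1818), and the difference of means ran from -6.69 to -4.54 M with 1 library left out. Genes above 0 turned to 28.3 more after S-venlafaxine among filtered genes and to 259.5 more by medians. With 1 library left out, measures that had not passed changed sign: genes above 0 (-4042 to 1432), at 1 TPM (-80.1 to 1398) and at 10 TPM (-115 to 184), the effective number (-28.0 to 115.4), and the percent held below 1 TPM (-0.0637 to 0.316), at 1 to 10 (-0.152 to 0.284), 10 to 100 (-0.149 to 0.508) and 1000 TPM or more (-1.14 to 0.0882).

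The share of genes with an interval within 2-fold rose to 92.7% below 1 TPM, 77.5% at 1 to 10 and 82.9% at 10 to 100 TPM with limma on log2(TPM + 1), since the added 1 shrinks fold changes of low genes. With the 12 exposed libraries alone it was 14.8% below 1 TPM. Separated genes fell to 18 higher and 12 lower at a mean of at least 1 TPM, where fewer genes are counted, and those lower rose to 56 on TMM-scaled CPM.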

Other observations

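DESeq2, run on the same 59733 genes, called 70 (0.117%) between the forms, 38 higher and 32 lower after S-venlafaxine. The genes given by identifier were all among them. All 70 had an unadjusted edgeR p under 0.05, against 3.45% of all tested genes, and 1 of them was called by edgeR. In 20 of the 38 the R-venlafaxine group was listed at 0 throughout, and in 25 of the 32 the S-venlafaxine group was. A single fish held over 50% of the higher group's summed TPM in 9 of the 38 and 10 of the 32. How common a group at 0 or such a fish is over all tested genes was not counted. The 2 forms were fully separated in TPM in 13 of the 38 and 6 of the 32. Over all tested genes 0.11% were separated with S-venlafaxine higher and 0.0485% with it lower. The 70 were picked by the same difference in the same fish, so these counts lend the calls no weight. The mean level in the higher group had a median of 0.958 TPM over the 38 and 0.982 TPM over the 32.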
